A study of Homo sapiens with 3 samples.

Results

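A total of 2641 of the 13650 MAX peaks of MDA-MB-231 cells (19.35%, Wilson 95% interval 18.69 to 20.02) were MAX-only intragenic distal sites without an E-box. These sites were selected on the deposited peak calls and on position and sequence: a peak shared no base with a BMAL1 peak, no base of it lay within 300 bp of an annotated transcription start site (TSS), its summit lay in the body of a protein-coding gene, and the canonical E-box CACGTG was missing within 100 bp of the summit. BMAL1 and MAX were profiled by chromatin immunoprecipitation sequencing (ChIP-seq) in MDA-MB-231, an established human triple-negative breast cancer line. The cells were fixed with formaldehyde close to confluence, and the labels name no treatment. There was 1 library for MAX (11545865 tags), 1 for BMAL1 (13866783 tags) and 1 for the input chromatin (29308882 tags) to which both were compared. No value therefore has a replicate check, no test between conditions was possible, and the intervals given below cover counting error only, since the sites of 1 library are not replicates.

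MAX is a basic helix-loop-helix leucine zipper protein that binds DNA as a dimer, with MYC as an activator or with MXD proteins and MNT as repressors. These dimers prefer the E-box CACGTG and also bind variants of it, whereas BMAL1 binds E-boxes together with CLOCK or NPAS2. Introns of active genes hold many enhancers, and in mesenchymal-like breast cancer lines such elements are commonly bound by AP-1 (dimers of FOS and JUN proteins), TEAD (the DNA-binding partners of YAP and TAZ) and RUNX factors.

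Of 25 motifs compared at these sites, the AP-1 element TGANTCA and the E-box variant CATGTG exceeded windows 2 kb away by the most percentage points. By ratio to those windows, some rarer motifs, such as the E-box variant CACGCG (3.88), rose more than CATGTG (2.44). Strong intronic sites with CATGTG within 40 bp of the summit and no AP-1 element within 100 bp are shown first, as the 81 bases centred on the MAX summit on the plus strand of hg19, with CATGTG or its reverse complement CACATG in capitals. Only windows without an annotated exon are shown, and the site in PAG1, higher than all but that in NEDD4L, is described below without its sequence. Fold is the ratio of the ChIP pileup at the summit to the local background from the input, as the peak caller wrote it. NEDD4L encodes a ubiquitin ligase, SMARCA4 the BRG1 ATPase of the SWI/SNF complex, RUNX2 a transcription factor of bone formation and POU2F1 the octamer-binding protein OCT1.
NEDD4L, chr18:55891412-55891492, fold 25.11, pileup 46: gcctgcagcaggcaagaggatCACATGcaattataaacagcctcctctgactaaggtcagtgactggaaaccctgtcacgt
SMARCA4, chr19:11146677-11146757, fold 23.43, pileup 36: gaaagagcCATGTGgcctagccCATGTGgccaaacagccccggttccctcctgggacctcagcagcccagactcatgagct
RUNX2, chr6:45413768-45413848, fold 22.61, pileup 29: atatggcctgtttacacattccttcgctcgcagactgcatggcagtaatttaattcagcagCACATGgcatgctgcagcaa
POU2F1, chr1:167191629-167191709, fold 22.34, pileup 44: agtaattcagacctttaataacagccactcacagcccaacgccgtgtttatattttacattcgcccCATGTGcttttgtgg
The SMARCA4 window held the hexamer 2 times on the same strand, and the other 3 windows held it once. The nearest hexamer was centred 16.5 bp from the summit at NEDD4L, 15.5 bp at SMARCA4, 23.5 bp at RUNX2 and 28.5 bp at POU2F1.

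The next 4 windows, chosen in the same way, have an AP-1 element and no CATGTG, with TGANTCA in capitals. A higher site in PEMT, whose window meets an exon, is described below. NEK6 encodes a mitotic kinase, ALDH1A2 a retinaldehyde dehydrogenase, PHC2 a Polycomb subunit and SMYD3 a lysine methyltransferase.
NEK6, chr9:127029659-127029739, fold 20.31, pileup 40: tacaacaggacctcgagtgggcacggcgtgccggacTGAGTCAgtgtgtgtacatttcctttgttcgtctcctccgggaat
ALDH1A2, chr15:58624485-58624565, fold 19.04, pileup 30: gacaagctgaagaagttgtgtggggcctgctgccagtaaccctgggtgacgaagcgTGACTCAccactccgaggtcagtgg
PHC2, chr1:33807999-33808079, fold 18.71, pileup 24: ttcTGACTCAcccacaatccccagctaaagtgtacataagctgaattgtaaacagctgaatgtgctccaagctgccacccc
SMYD3, chr1:246592027-246592107, fold 18.42, pileup 27: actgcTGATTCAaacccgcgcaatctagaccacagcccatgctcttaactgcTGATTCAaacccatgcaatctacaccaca
At NEK6 the element was centred 1 bp from the summit, and at PHC2 34 bp. The SMYD3 window held it 2 times, within a stretch that is nearly repeated in the window.

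A pair of strong sites with both elements within 40 bp of the summit follow, with both in capitals. They lay in introns of COBL (an actin nucleator) and STK32B (a protein kinase).
COBL, chr7:51191451-51191531, fold 14.81, pileup 19: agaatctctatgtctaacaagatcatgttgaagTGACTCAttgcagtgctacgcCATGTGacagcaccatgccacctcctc
STK32B, chr4:5367481-5367561, fold 14.6, pileup 23: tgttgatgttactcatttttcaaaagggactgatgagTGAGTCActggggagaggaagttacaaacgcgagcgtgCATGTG

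A smaller group of sites was rich in CpG. A pair of strong ones with the E-box variant CACGCG (or CGCGTG on the other strand, in capitals) within 40 bp of the summit were in the first introns of TRIO, which encodes an exchange factor for small GTPases, and CASZ1, which encodes a zinc finger protein.
TRIO, chr5:14264909-14264989, fold 17.77, pileup 35: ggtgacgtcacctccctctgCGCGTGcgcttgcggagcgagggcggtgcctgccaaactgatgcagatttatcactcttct
CASZ1, chr1:10854187-10854267, fold 17.15, pileup 22: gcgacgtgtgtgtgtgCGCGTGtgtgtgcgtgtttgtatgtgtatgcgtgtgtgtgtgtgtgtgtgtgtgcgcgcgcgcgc
The CASZ1 window is largely a run of GT repeats interrupted by CG. The last sequence is the whole window, 100 bp to either side of the summit, of the site in BCOR, the strongest that held neither an AP-1 element nor CATGTG, the TEAD element GGAATG, the RUNX element TGTGGT or an E-box variant described below, and it is printed without capitals.
BCOR, chrX:39966610-39966810, fold 20.27, pileup 26: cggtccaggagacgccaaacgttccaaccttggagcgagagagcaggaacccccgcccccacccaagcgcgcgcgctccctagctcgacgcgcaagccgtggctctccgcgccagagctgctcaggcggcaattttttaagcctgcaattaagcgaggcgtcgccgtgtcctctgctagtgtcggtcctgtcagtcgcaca

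The median height of the sites was slightly below that of all MAX peaks, with widely overlapping distributions. Their fold enrichment had a median of 8.91 (quartiles 7.24 and 10.79, range 3.17 to 25.11), against 9.73 for all MAX peaks (quartiles 7.86 and 12.37), a log2 ratio of -0.13. Intergenic MAX-only sites without an E-box had the same median of 8.91. The median was 10.15 at MAX-only distal sites with an E-box, 9.87 at MAX-only promoters without one and 12.06 at distal sites shared with BMAL1. Of the 2641 sites, 356 (13.5%) were above a fold of 12.37, which 25% of all MAX peaks exceeded, compared with 13.8% of the intergenic sites, 29.5% of the distal E-box sites and 47.8% of the distal sites shared with BMAL1. The median site was 394 bp wide and had a pileup of 17 fragments at its summit, against 18 for all MAX peaks. BMAL1 sharing and the E-box are part of the rule and fold is not, but a peak had to pass the caller's p-value cutoff, which fixes the lower end of all these distributions.

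**Figure D1:**
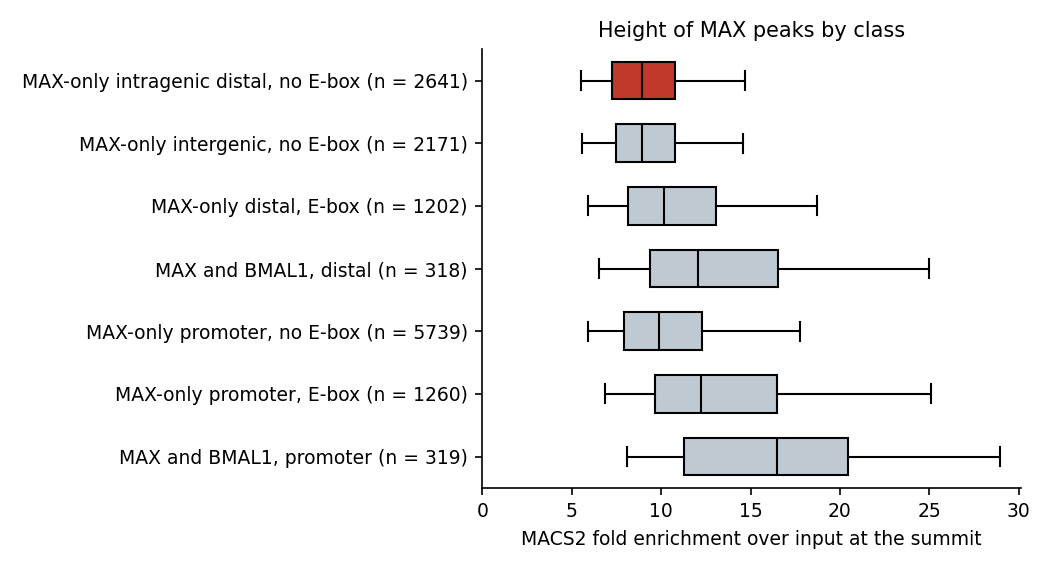
Fold enrichment over input at the summit (horizontal axis) for the 7 classes of MAX peaks, with the median as the line, the quartiles as the box and the 5th and 95th percentiles as whiskers. The MAX-only intragenic distal sites without an E-box (red) have a median of 8.91, as do their intergenic counterparts, and all other classes have higher medians.

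The 15 strongest sites included those in NEDD4L (fold 25.11), PAG1 (24.18), SMARCA4 (23.43), ENO1 (23.38), LRP5 (23.27), RUNX2 (22.61), SHROOM2 (22.61), POU2F1 (22.34), NEURL1 (22.23), PPP1R15A (21.58), PEMT (20.47), PRMT8 (20.46), NEK6 (20.31) and BCOR (20.27). CATGTG lay within 100 bp of the summit at 8 of the 15, TGANTCA at 5, the RUNX element at 5 and the TEAD element at 4. The shares over all 2641 sites were 28.1%, 29.6%, 22.3% and 19.5%, in the same order. Of the rarer E-box variants, CACGCG was at 2 of the 15, CACGTT at 2 and CACGAG at 1 (6.66%, 5.91% and 7.65% of all sites). Differences between the 15 and all sites were not tested. At PAG1, a membrane adaptor of SRC kinases, CATGTG was centred 7.5 bp from the summit. SHROOM2, an actin-binding protein, and NEURL1, a ubiquitin ligase, had both CATGTG and TGANTCA in the window. The site in PEMT, which makes phosphatidylcholine, was the tallest of all by pileup among these 15 (75 fragments), with a local input background of 3.66, and held TGANTCA 3 bp from its summit and CACGCG 2 times. The sites in ENO1, encoding a glycolytic enzyme, and PPP1R15A, encoding the stress-induced phosphatase subunit GADD34, fell on untranslated exons, and the other 13 were intronic.

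TGANTCA was found in 783 of the 2641 summit windows (29.6%, 27.9 to 31.4), against 16.2% of all MAX peaks. Windows of the same length placed 2 kb to either side of the summits, leaving out those with CACGTG, held it in 308 of 5119 (6.02%, 5.4 to 6.7). The difference was 23.6 percentage points. Most matches were the form TGACTCA (or TGAGTCA), present in 25% of summit windows and 3.61% of flanks, while TGAATCA (or TGATTCA) was in 5.87% and 2.48%. The CRE element TGACGTCA, which CREB and ATF dimers bind, was in 5 sites (0.189%) and 0.117% of flanks.

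CATGTG was found in 741 sites (28.1%, 26.4 to 29.8), against 16.8% of all MAX peaks and 11.5% of the flanks (10.7 to 12.4). The base before the hexamer was most often C or G: CCATGTG was in 12% of the sites and 3.81% of flanks and GCATGTG in 8.94% and 3.4%. ACATGTG was in 4.88% and 2.56% and TCATGTG in 4.81% and 2.42%. The other 4 variants were rarer. CACGCG was in 6.66% of the sites and 1.72% of flanks, but in 13.3% of all MAX peaks. CATGCG was in 6.13% of the sites and 2.42% of flanks, CACGAG in 7.65% and 4.24%, and CACGTT in 5.91% and 3.44%. Any of the 5 variants was present in 47.1% of the sites (45.2 to 49.0), 43.1% of all MAX peaks and 21.3% of flanks.

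Elements of other factors were also more frequent at the summits than beside them. The RUNX element TGTGGT was in 22.3% of the sites and 13.5% of flanks, the TEAD element GGAATG in 19.5% and 10.6%, the purine-led ETS element CAGGAAG in 15.1% and 7.93%, the forkhead element TGTTTAC in 6.1% and 2.27%, and the GC-box GGGCGG of SP and KLF factors in 15.4% and 8.15%. Over all MAX peaks, most of which were at promoters, the shares were 13.9% for RUNX, 13.4% for TEAD, 11.4% for the ETS element and 3.6% for the forkhead element, all below those of the sites, and 34.4% for the GC-box, which was above. The C/EBP element TTGCNNAA (7.57% and 8.54%) and the STAT element TTCNNNGAA (5.15% and 5.14%) had overlapping intervals at summits and flanks. The NF-Y element CCAAT was less frequent at the summits (16.5% and 21.6%). The summit windows had a median GC content of 55.7%, which was 6.97 points above that of the flanks, and the shares were not adjusted for base composition. All motifs were searched on both strands by exact letters, a match is a description of the sequence and no binding of these factors was measured here. CATGTG and the RUNX element overlapped in 57 sites, and CATGTG overlapped TGANTCA in 12.

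**Figure D2:**
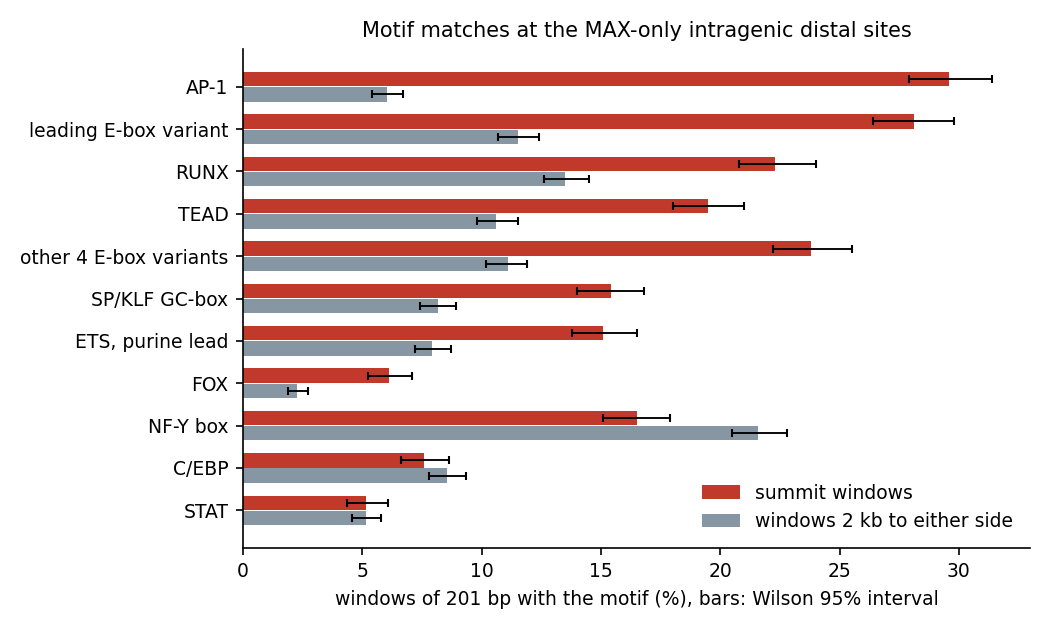
Share of windows (100 bp to either side of their centre) that hold each motif (horizontal axis, percent) at the 2641 summits (red) and in windows 2 kb to either side (grey), with Wilson 95% intervals as bars. The AP-1 bars stand at 29.6% and 6.02%, and the leading E-box variant, CATGTG, at 28.1% and 11.5%. The NF-Y box is lower at summits.

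Both leading motifs were more frequent around the summits than further away. Within 50 bp of the summit there were 18 AP-1 matches for each 1000 sites and 10 bp, against 4.4 at 200 to 500 bp. CATGTG gave 20.1 and 6.83. In bins of 25 bp, AP-1 was nearly level within 100 bp of the summit, at 14.7 to 20.1. CATGTG fell from 22.1 next to the summit to 11.2 and 13.5 at 75 to 100 bp on its 2 sides. The TEAD element (12.1 and 7.16) and the RUNX element (13.7 and 7.5) rose less. Among the sites with the motif, its nearest copy was within 50 bp of the summit at 56.4% for AP-1 and 63.7% for CATGTG, and 110 and 130 sites held 2 or more copies. The share under even placement in the window was not computed for comparison.

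**Figure D3:**
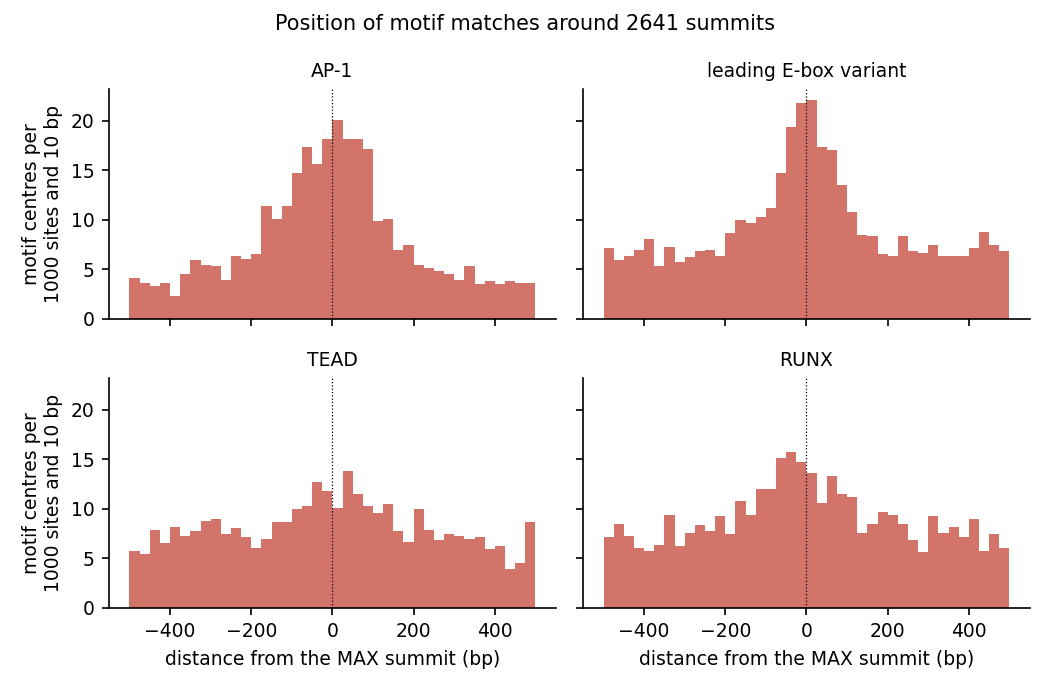
Number of motif centres for each 1000 sites and 10 bp (vertical axis) against the distance from the MAX summit (horizontal axis, bp, bins of 25 bp) for 4 motifs. The leading E-box variant, CATGTG, peaks at the summit, AP-1 is nearly level within 100 bp of it, and TEAD and RUNX show a lower rise.

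The AP-1 element and CATGTG were together in 249 sites (9.43%). AP-1 alone was in 534, CATGTG alone in 492 and neither in 1366 (51.7%). CATGTG was present in 31.8% of sites with an AP-1 element and in 26.5% of the others, a difference of 5.32 points (Newcombe 95% interval 1.55 to 9.19). Both motifs were less frequent at the 479 CpG-rich sites described below (AP-1 11.1%, CATGTG 11.9%) than at the other 2162 (33.8% and 31.6%). The motifs overlapped each other in 12 sites. Whether the difference remains within each of these CpG sets, or without the overlapping sites, was not tested. Median fold was 9.35 with both, 9.14 with CATGTG alone, 8.91 with AP-1 alone and 8.86 with neither, and the quartiles of the 4 groups overlapped widely. With the sites divided into 4 equal groups by fold, the share with CATGTG went from 23.8% (20.7 to 27.1) to 31.8% (28.4 to 35.5) and that with any of the other 4 variants from 20.3% (17.4 to 23.5) to 30.3% (26.9 to 33.9) between the lowest and the highest group. The AP-1 share was 28.9%, 28.6%, 27.6% and 33.5% from the lowest to the highest group, with overlapping intervals, and the TEAD share stayed between 19.1% and 19.9%.

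Compared with the intergenic sites without an E-box, the intragenic sites differed by -0.062 points in AP-1 share (-2.66 to 2.52) and by 1.07 points in CATGTG share (-1.48 to 3.59), so no difference in these shares between sites inside and outside genes was detectable at this count. Of 25 motifs compared in this way, 6 had an interval that did not include 0, without adjustment for their number, among them the ETS element CAGGAAG (2.26 points, 0.282 to 4.21) and CCAAT (-2.97 points, -5.16 to -0.791). Against MAX-only distal sites with an E-box, AP-1 was 8.52 points more frequent (5.57 to 11.4), CATGTG 11.8 points (9.07 to 14.5), TEAD 4.57 points (1.99 to 7.03) and RUNX 4.95 points (2.23 to 7.56). Against distal sites shared with BMAL1, CATGTG was less frequent (28.1% and 35.2%, difference -7.16, interval -12.8 to -1.82), and so were the other 4 variants together (23.8% and 32.4%, difference -8.57, -14.1 to -3.39). Of these 4, CACGTT alone had an interval that did not include 0 (5.91% and 13.2%, difference -7.3, -11.5 to -3.88). The differences were -1.83 points for CACGCG, 0.474 for CATGCG and -0.842 for CACGAG. The AP-1 shares differed from those of the BMAL1-shared distal sites by -2.43 points (-8.01 to 2.77). TEAD differed from them by -0.663 points (-5.64 to 3.66) and RUNX by 0.013 points (-5.12 to 4.55). Against the intergenic sites, TEAD differed by -0.39 points (-2.66 to 1.86) and RUNX by 1.2 points (-1.15 to 3.53). Among the distal classes, TEAD and RUNX were thus detectably more frequent only than at the distal E-box sites. MAX-only promoters without an E-box held an AP-1 element in 6.06% and CATGTG in 9.24%, and any of the other 4 variants in 38.7%.

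The sites divided by CpG content. The 479 sites (18.1%) with 10 or more CpG in the window had AP-1 in 11.1% (8.56 to 14.2), CATGTG in 11.9% (9.3 to 15.1), CACGCG in 21.5% (18.1 to 25.4) and a GC-box in 42.6% (38.2 to 47.1). The other 2162 had AP-1 in 33.8% (31.8 to 35.8), CATGTG in 31.6% (29.7 to 33.6), CACGCG in 3.38% (2.69 to 4.22) and a GC-box in 9.34% (8.19 to 10.6). The CpG-rich summits were a median of 1150 bp from a TSS of any gene and 74.3% of them were intronic, against 5660 bp and 92.4% for the others. Median fold was 9.2 and 8.88. The GC-box and CACGCG themselves contain CpG.

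Of the 2641 summits, 2353 (89.1%, 87.8 to 90.2) lay in introns. A further 121 (4.58%) lay in untranslated exons, 115 (4.35%) in coding exons and 52 (1.97%) in exons of noncoding transcripts. Introns made up 88.9% of the bases of the host genes more than 300 bp from their TSSs, averaged over sites. Of the 2097 summits in an intron of the canonical transcript, 872 (41.6%, 39.5 to 43.7) were in the first, whereas the first intron made up 32.3% of the intron bases of these genes. The share was 40.7% at distal E-box sites in genes (difference 0.93 points, -3.72 to 5.48) and 31.6% at distal sites shared with BMAL1 (difference 9.97 points, 1.48 to 17.5). The first 20% of the gene's length held 27.3% of the sites (25.7 to 29.1), and the following 4 parts of that size held 19.7%, 18.9%, 16.4% and 17.6%. That first part held 28.6% (25.3 to 32.1) of distal E-box sites in genes and 24.4% (18.6 to 31.4) of those shared with BMAL1. The median distance to a TSS of any gene was 4487 bp. It exceeded 10 kb for 803 sites (30.4%) and was at most 1 kb for 458 (17.3%).

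**Figure D4:**
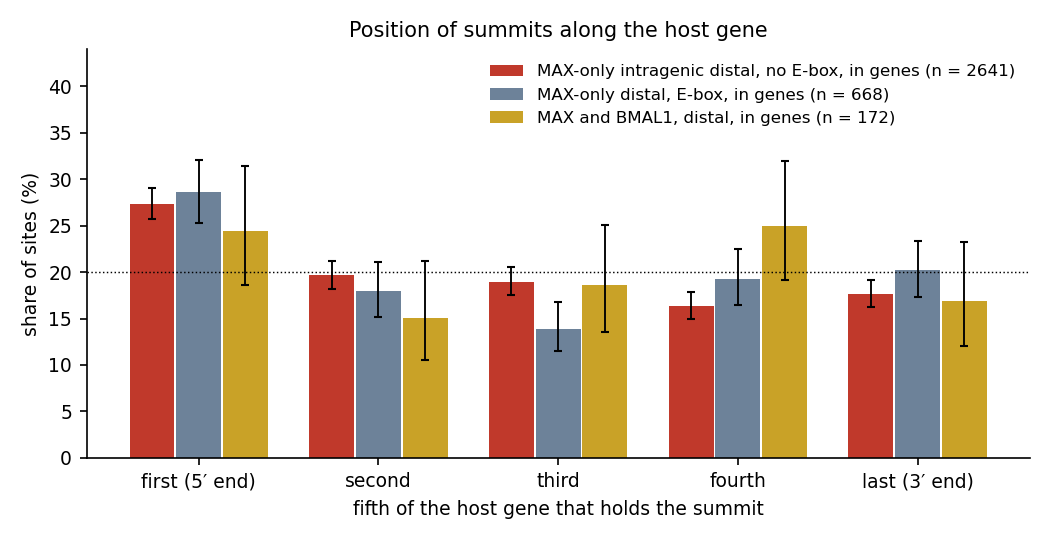
Share of sites (vertical axis, percent, Wilson 95% intervals as bars) in 5 equal parts of the host gene from its 5′ to its 3′ end (horizontal axis), with a dotted line at 20%. For the MAX-only intragenic distal sites without an E-box (red), the first holds 27.3% and the others 16.4 to 19.7%.

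At least 1 site lay in 1974 of 20176 protein-coding genes (9.78%). One site was found in 1467 of them, 322 had 2 and 185 had 3 or more. Host genes had a median length of 79.6 kb against 27.2 kb over all protein-coding genes, and the share of genes with a site rose from 3.75% below 25 kb to 26.7% at 200 kb or more. Another site lay within 10 kb of 592 of the 2641 (22.4%).

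ZMIZ1, a coactivator related to PIAS proteins, had 11 sites, and no gene had more. In order along the chromosome their folds were 6.35, 10.83, 10.02, 11.16, 7.98, 7.62, 6.85, 5.44, 7.93, 10.27 and 12.02, spread over 229108 bp. SHB, an adaptor protein, had 9 sites with folds of 3.81 to 9.92 (pileups 13 to 25), and nearly all of it is also covered by a longer unnamed gene model on the same strand. ACTN4, the actin crosslinker alpha-actinin 4, had 8 sites in 61543 bp, with folds of 7.52 to 10.45. RPTOR, a subunit of the growth-regulating kinase complex mTORC1, had 8 sites, and 7 of these held an AP-1 element, beside 29.6% of all sites. This was the highest count among the named genes. It was 3 of 11 in ZMIZ1, 3 of 9 in SHB and 2 of 8 in ACTN4. In the genes described next it was 4 of 7 in FRMD4A and 2 of 7 in each of CDC42EP4, COL4A2 and PRKAG2.

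Another 4 genes had 7 sites each. CDC42EP4, an effector of the GTPase CDC42, was the densest of these genes, with its 7 sites in a gene of 28.4 kb, or 24.7 for each 100 kb. The collagen gene COL4A2 had folds of 5.08 to 12.37. FRMD4A, a scaffold protein of epithelial polarity, had folds of 4.62 to 17.57, and PRKAG2, a regulatory subunit of AMP-activated kinase, of 6.09 to 18.51. No site in these 8 genes except 4 in FRMD4A and PRKAG2 exceeded a fold of 13.

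**Figure D5:**
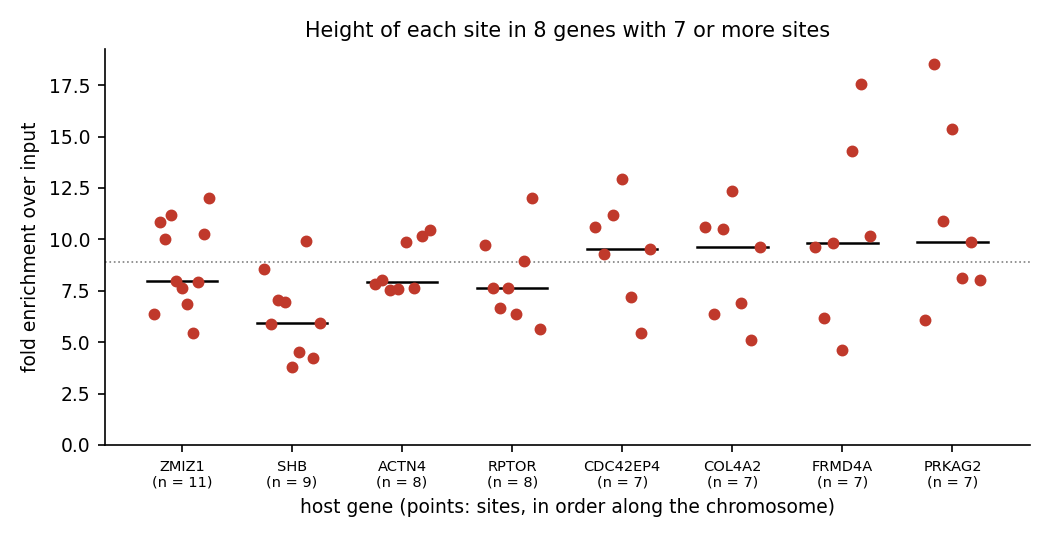
Fold enrichment over input (vertical axis) of each site (points, in order along the chromosome) in 8 genes with 7 or more sites (horizontal axis), with the gene's median as a line and the median of all sites, 8.91, as a dotted line. The sites of SHB lie lowest, with a median of 5.92.

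The TGF-beta and mesenchymal list had sites in 12 of 34 genes (35.3%, 21.5 to 52.1), beside 9.78% of all protein-coding genes and 13.7% for genes of the same lengths, taken from 5 length bins. TGFB1, the ligand, had 4 sites with a highest fold of 10.8, the receptor gene TGFBR2 had 1 (7.62), SMAD3, a signal transducer, had 3 (10.67) and the inhibitory SMAD6 and SMAD7 had 2 (10.79) and 1 (6.97). In the list for YAP, TAZ and TEAD, 9 of 28 genes had a site (32.1%, beside 15.4% by length), among them the coactivator YAP1 (5.08), its partners TEAD1 (11.17) and TEAD3 (9.74), and the phosphatase PTPN14 (13.79), which holds YAP in check.

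In the integrin and focal adhesion list, 14 of 45 genes had a site (31.1%, beside 15.8%), including the integrin chains ITGA3 (11.58), ITGB5 (10.91), ITGB4 (8.04), ITGA6 (7.4) and ITGB3 (6.77) and the kinase PTK2 (7.01). In the EGFR and MAPK list it was 12 of 45 (26.7%, beside 12.6%). EGFR itself had 4 sites with a highest fold of 14.67, its ligand TGFA had 3 (10.27), MET had 1 (15.87), and the feedback inhibitors SPRY1 (17.93) and SPRED2 (16.43) had the highest folds of this list. Of 20 genes listed for AP-1, ATF and related factors, 6 had a site (30.0%, 14.5 to 51.9, beside 8.13%): MAFK (13.67), ATF3 (12.63), BACH2 (9.4), BACH1 (9.03), JDP2 (8.67) and FOSL2 (6.89).

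Of 25 core clock genes found in the annotation, 6 had a site (24.0%, 11.5 to 43.4, beside 11.2% by length). PER1, a repressor of the clock, had 1 with a fold of 10.22, 2099 bp from the gene's start. The BMAL1 gene had 1 (8.96), CSNK1D, a kinase of PER proteins, 1 (8.46), the repressors BHLHE40 1 (7.96) and CRY2 1 (6.6), and NPAS2, a partner of BMAL1, 3 (up to 7.96). Of 13 genes of the MAX network, MLXIPL (9.17) and MXI1 (8.63) had 1 site each (15.4%, 4.33 to 42.2, beside 8.66% by length). Among 78 cytosolic ribosomal protein genes only RPS9 did (8.86), which is 1.28% beside 4.16% by length, whereas 72 of them had a MAX peak at their own TSS.

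A MAX peak within 300 bp of one of the gene's own TSSs was present in 829 of the 1974 host genes (42.0%, 39.8 to 44.2) and in 32.8% of the other protein-coding genes, a difference of 9.18 points (6.91 to 11.5). Within the 5 bins of gene length the difference was between 4.87 and 15 points, and at 50 to 100 kb its interval included 0 (-0.142 to 9.97). A BMAL1 peak was at the TSS of 2.53% of host genes and 1.53% of the others.

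RHOC, whose peak (fold 6.59) began 1 bp beyond the limit of 300 bp from a TSS, was just inside. A site in PRMT8 with CACGTG 96 bp from its summit (fold 5.71) was kept, and one in LYRM4 with CACGTG 95 bp away (fold 8.7) was not, since the whole hexamer had to lie within the window. SYNE3 had a site 117 bp from a BMAL1 peak (fold 14.6), while a site in AXL shared 27 bp with one (fold 8.74). The weakest member by p-value was in NSUN6 (fold 5.08). CACGTG was present elsewhere in the peak at 230 of the 2641 sites (8.71%), 99 lay within 10 kb of a BMAL1 peak and 21 within 1 kb.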

How the data were processed

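The members and the lists of genes and motifs were chosen with earlier results of these data known. The authors aligned single reads on hg19 with BWA 0.6.2 and called peaks with MACS2 2.0.9 for each antibody against the same input. The deposited lists give, for each peak, the pileup signal at the summit (tags extended to 300 bp), the fold enrichment of that pileup relative to the input around it, and also -log10 p-value and q-value columns. Every listed peak was kept. The headers give a cutoff of 1e-05 on the p-value where the methods give 1e-08. Between these limits lay 336 of the 2641 members, beside 1215 of all 13650 MAX peaks. It was 246 of the 2171 intergenic sites without an E-box and 77 of the 1202 distal E-box sites. At most 1 duplicate tag per position was kept for MAX and 2 for BMAL1.

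TSSs, genes and exons came from GENCODE release 44 mapped to GRCh37, with sequence from GRCh37. A summit in several genes was assigned to a gene with a name of its own and then to the shorter one, except in counts of genes, where it counted for each. Shares carry Wilson 95% intervals and differences Newcombe 95% intervals. Named sites were the 15 strongest, the strongest for each motif class and those at the limits of the rule, and named genes those with most sites (an unnamed model left out) and genes of 9 lists. Some of these genes, 1 of the lists and 1 sequence are not reported here. The alternatives were stricter p-values, other TSS, E-box and BMAL1 limits, other windows and flanks, other measures of height and other annotation, and 2 more came after seeing the data. The counting steps were tested on simulated data. Python 3.11.15, numpy 2.4.6, pandas 2.3.3, pysam 0.24.0 and matplotlib 3.10.9 were used. BMAL1 heights were not analysed here.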

Additional observations from a re-analysis of the deposited data

How the results depend on the processing

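Of 118 values recomputed under other choices, 78 stayed within the interval of the reported value (for counts, within 1.5 times it), 40 moved and 0 changed sign. With p at most 1e-08 the median fold was 9.35. With p at most 1e-12 there were 1154 sites in 979 genes with a median fold of 11.0 and GC of 56.7%, and the shares were 33.5% for AP-1 (27.8 points above flanks), 33.2% for CATGTG (21.3) and 54.3% for the 5 E-box variants (32.6). With no base within 1 kb of a TSS, introns held 91.1%, AP-1 33.6% (27.4 above flanks), CATGTG 30.6%, and GC was 54.7% (5.97 above). With TSSs of protein-coding transcripts alone, introns held 85.0%, and with transcripts tagged basic 91.5%. In windows of 50 bp to either side of the summit the shares were lower, as the window is shorter, at 16.3% for AP-1 (13.1 above flanks), 17.2% for CATGTG (11.0) and 30.3% for the variants (19.0), and GC was 56.4% (7.92 above). Against flanks 5 kb away GC was 7.46 points higher. The log2 ratio of median height to all MAX peaks was -0.0825 by pileup and -0.15 by -log10 p. Added after the data were seen, the sites with fewer than 10 CpG had introns 92.4%, AP-1 33.8% (27.3 above), CATGTG 31.6% (19.3 above) and GC 54.2% (5.97 above), and the strongest site of each gene gave a median fold of 9.35, a log2 ratio of -0.0575 and introns 86.8%. Taking the strongest site selects on fold among the sites but not among all MAX peaks. Its fold and log2 ratio are raised by that selection and do not check the height comparison. CATGTG was singled out after its value was seen. No pairing of libraries was possible because each antibody has 1 library, and the results come from no test. Summit and flank windows come from the same sites, but the intervals of their differences treat them as independent. At 11545865 tags a median site rests on 17 fragments, so weaker sites may be missing.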

Other observations

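Ranking all 2079 hexamers (with their reverse complements) by the difference between the summit windows and the flanks, without reference to any factor, gave GAGTCA at the top (31.3% of sites and 9.47% of flanks), GACTCA next (29.7% and 9.69%) and CATGTG at rank 3 (28.1% and 11.5%). The former pair are parts of the AP-1 element. The TEAD hexamer GGAATG ranked 32 and the RUNX hexamer TGTGGT 33. CACGCG ranked 165. Among the other hexamers of the form CANNTG, the palindrome CAGCTG was more frequent at summits (19.0% and 10.7%), while CAGGTG (17.2% and 21.8%) and CAAATG (8.78% and 12.6%) were less frequent there. The CTCF element was in 26 sites (0.984%) and the NRF1 element in 4.

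The sites were unevenly spread over the chromosomes. For each Mb covered by protein-coding genes there were 5.54 sites on chromosome 19, 4.77 on chromosome 17, 4.06 on chromosome 21 and 4.04 on chromosome 20, against 0.957 on chromosome 5, 0.698 on chromosome 4 and 0.644 on the X chromosome. Densities of other MAX peaks were not computed, so this spread is not shown to be particular to these sites. The densities were not adjusted for GC content or chromosome copy number.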
